A study of Mus musculus with 384 samples.

Results

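The genes described here are Dcn, Bgn, Aspn, Lum, Fmod and Ogn, 6 small leucine-rich proteoglycan genes, chosen by their symbols among the 40594 genes present in both count tables. The choice was made with earlier results of these data known. They were measured by RNA sequencing of mouse kidney cells, from animals aged 8 weeks, sorted into single wells for the receptor PDGFRB, which marks fibroblasts, pericytes and mesangial cells. The CD45- plates held PDGFRB+ cells negative for CD45, the leukocyte surface phosphatase encoded by Ptprc, and the CD45+ plates held cells positive for both. Each gate was sorted in 2 batches onto 1 plate of 96 wells each, so the series has 384 wells on 4 plates. The wells' names contain UUO, an abbreviation that is not spelled out there, and the labels of this study of kidney fibrosis give neither genotype nor strain. No animal is named either, so each plate counts as 1 sample: the comparisons below are between plates, without a p-value or standard error.

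Wells that reached 10000 reads and 500 genes were kept, 93 on each CD45- plate, 92 on the CD45+ plate of batch 1 and 90 on that of batch 2. They held between 10497 and 1246070 reads each, and 79 and 82 CD45- wells and 76 and 78 CD45+ wells had at least 50000. At an equal depth of 50000 reads per well, Ptprc had a read in 0 of 79 and 3 of 82 CD45- wells and in 54 of 76 and 40 of 78 CD45+ wells. Pdgfrb had a read in 46 of 79 and 45 of 82 CD45- wells and in 0 of 76 (exact 95% binomial interval up to 4.74%) and 3 of 78 CD45+ wells. The 8 macrophage markers summed to 141 and 352 CPM (reads of a gene per 1000000 reads of a plate) in CD45- and 14025 and 23212 CPM in CD45+, and 8 fibroblast markers to 18169 and 17001 CPM in CD45- and 789 and 2891 CPM in CD45+. Other cell types were in the CD45- plates as well: 4 haemoglobin genes summed to 13891 and 2918 CPM there and to 23.1 and 20.9 CPM in CD45+, and 8 endothelial markers to 1846 and 2055 CPM in CD45- and 361 and 903 CPM in CD45+. The gate was thus visible for Ptprc, while Pdgfrb had a read in part of the CD45- wells and in few CD45+ wells.

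Small leucine-rich proteoglycans are secreted matrix proteins whose curved core, built of leucine-rich repeats, binds collagen fibrils and sets their diameter and spacing. Decorin (Dcn), biglycan (Bgn) and asporin (Aspn) form class I, lumican (Lum) and fibromodulin (Fmod) form class II, and osteoglycin (Ogn) belongs to class III. Decorin and biglycan carry chondroitin or dermatan sulfate chains and lumican and fibromodulin carry keratan sulfate, whereas asporin has a stretch of aspartate residues in place of a sulfated chain. Several members bind TGF-beta, and free biglycan is a ligand of the receptors TLR2 and TLR4 on macrophages. In the kidney they are known as products of interstitial fibroblasts that accumulate in scar tissue.

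The members lie at 4 places in the mouse genome. Dcn and Lum are neighbours on chromosome 10, followed by Kera and Epyc of the same family. Aspn and Ogn lie on chromosome 13 between Ecm2 and Nol8, with only Omd between them. Fmod lies beside Prelp on chromosome 1, and Bgn is on chromosome X. Promoter windows of 250 bases before to 50 bases after the start site were taken from RefSeq (GRCm38.p6), which matched 4 of the 6 members. Those of Bgn, the member found in most wells, and of the chromosome 13 neighbours Ogn and Aspn are shown. Ogn and Aspn were nearly absent from CD45+ wells, and so was Fmod, whose window is not shown. Capitals mark matches on either strand to the TATA element TATAAA, to the AP-1 element TGANTCA (no match) or to the GC box GGGCGG, and matches that overlap are joined.
Bgn, chrX:73483351-73483650, + strand: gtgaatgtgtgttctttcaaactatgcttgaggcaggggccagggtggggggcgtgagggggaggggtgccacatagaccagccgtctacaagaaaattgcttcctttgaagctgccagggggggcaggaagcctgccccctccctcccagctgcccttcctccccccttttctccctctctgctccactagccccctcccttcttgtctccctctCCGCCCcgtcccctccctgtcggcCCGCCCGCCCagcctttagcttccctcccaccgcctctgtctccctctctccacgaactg
Ogn, chr13:49607765-49608064, + strand: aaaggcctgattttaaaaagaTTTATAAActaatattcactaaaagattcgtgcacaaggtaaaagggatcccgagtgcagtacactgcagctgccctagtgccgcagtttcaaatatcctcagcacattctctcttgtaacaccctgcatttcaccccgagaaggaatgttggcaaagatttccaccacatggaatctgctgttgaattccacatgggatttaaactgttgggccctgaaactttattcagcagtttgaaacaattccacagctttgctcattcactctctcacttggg
Aspn, chr13:49544193-49544492, + strand: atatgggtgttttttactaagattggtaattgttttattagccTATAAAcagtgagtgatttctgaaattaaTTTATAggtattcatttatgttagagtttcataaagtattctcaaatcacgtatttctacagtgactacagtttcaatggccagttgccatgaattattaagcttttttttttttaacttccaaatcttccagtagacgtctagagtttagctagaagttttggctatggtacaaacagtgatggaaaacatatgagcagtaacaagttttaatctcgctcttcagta
The windows differed in base composition, with 63.7% G and C for Bgn, 51% for Fmod, 42.3% for Ogn and 31% for Aspn. Bgn had 3 matches to GGGCGG, all on the minus strand and within the last 34 bases before the start site, 2 of them overlapping. Ogn and Aspn had 2 matches each to TATAAA, 178 to 229 bases before the start site, those of Ogn overlapping each other. TGANTCA was in none of the 4 windows, and Fmod had no match to any of the 3 motifs. Among 32851 windows of the same length, 35.7% held GGGCGG, 13.6% held TATAAA and 7.81% held TGANTCA, and a match is a description of the letters only.

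All 6 members were higher in the CD45- plates of both batches. Levels are CPM over the kept wells of a plate, and a gene was called where log2(CPM + 1) moved by 4-fold or more, with 1 sign in both batches. A plate level cannot tell more cells that express a gene from more RNA per cell, which the wells below show separately. By this rule 12.9% of the 12882 genes of at least 1 CPM on average were higher in CD45-, and 4.33% were higher in CD45+. Together the members took 0.588% (batch 1) and 0.983% (batch 2) of all reads in the CD45- plates, against 0.0124% and 0.0832% in the CD45+ plates. The median log2 ratio of the 6 members, CD45- over CD45+, was 6.46 in batch 1 and 5.38 in batch 2, beside 0.39 and 0.56 over all 12882 genes.

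Among the class I members, Dcn, the collagen-binding proteoglycan decorin, had 2461 CPM in batch 1 and 4278 CPM in batch 2 in the CD45- plates, against 14.1 and 362 CPM in the CD45+ plates. Its log2 ratios were 7.35 and 3.56, and the distance between the batches lay mostly in the CD45+ plate of batch 2, where a single well held 95.3% of its reads. Without that well, replicate 18, the CD45+ plate of batch 2 had 17.9 CPM of Dcn and the log2 ratio was 7.82. In batch 1, replicate 76 of the CD45+ plate held 81% of the Dcn reads, and without it the level was 2.70 CPM and the log2 ratio 9.38. Bgn, the decorin relative that also signals as a soluble ligand, had 2620 and 3903 CPM in CD45- and 103 and 403 CPM in CD45+, with log2 ratios of 4.65 and 3.27, the smallest of the 6 members in each batch. Without CD45+ replicate 91 of batch 1 and replicate 18 of batch 2, its CD45+ levels were 63.9 and 115 CPM, and its log2 ratios were 5.34 and 5.07. Aspn, which binds collagen and TGF-beta, had 156 and 268 CPM in the CD45- plates, and 4 and 9 reads in the CD45+ plates, which are 0.151 CPM (exact 95% Poisson interval 0.0412 to 0.387) and 0.316 CPM (0.145 to 0.600). Its ratios of CPM were 1030 and 848, and its log2 ratios were 7.09 and 7.68.

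Of class II, Lum, which spaces collagen fibrils in cornea and skin, had 457 and 793 CPM in the CD45- plates, against 6.72 and 66.8 CPM in the CD45+ plates. The log2 ratios were 5.89 and 3.55. CD45+ replicates 76 and 18, which held most of the Dcn reads, also held 94.9% and 94.1% of the Lum reads, and without them Lum had 0.342 and 4.12 CPM in CD45+ and log2 ratios of 8.41 and 7.28. Fmod, which guides collagen cross-linking, had 28.3 and 253 CPM in the CD45- plates, with no read in the CD45+ plate of batch 1 and 0.738 CPM in that of batch 2. Against a floor of 3 reads in the plate, Fmod was at least 249.9-fold higher in CD45- of batch 1, and the ratio in batch 2 was 343. It also separated the batches more than any other member: the CD45- plate of batch 2 had 253 CPM and that of batch 1 had 28.3 CPM, or 8.69 CPM without replicate 48, which held 69.9% of the batch 1 reads. Without this well the log2 ratio of Fmod in batch 1 was 3.28, against 4.87 with it. Ogn of class III, a keratan sulfate proteoglycan first found in bone, had 160 and 334 CPM in the CD45- plates, and 6 reads in each CD45+ plate, which are 0.227 CPM (0.0832 to 0.493) and 0.211 CPM (0.0774 to 0.459). Its log2 ratios were 7.03 and 8.11, the first of which was 6.21 without CD45- replicate 15.

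Levels per kilobase used the union of a gene's annotated exons, 6.099 kb for Bgn, 5.838 kb for Dcn and 2.448 kb for Lum. The annotation used for counting is not given, so an order by this scale depends on these lengths. Per kilobase, Bgn and Dcn stood close together in the CD45- plates, with 430 and 640 CPM per kb for Bgn and 422 and 733 for Dcn. Lum followed with 187 and 324 CPM per kb, Aspn with 66.1 and 114, Ogn with 62.3 and 130, and Fmod with 8.57 and 76.4. Aspn and Ogn changed places between the batches. In the CD45+ plates Bgn was first in both batches, with 16.9 and 66 CPM per kb. Lum had 2.75 and 27.3 and Dcn 2.41 and 61.9 CPM per kb, so Dcn was above Lum in batch 2 and just below it in batch 1, and Fmod, Ogn and Aspn had between 0 and 0.223. By CPM without the length, Dcn was above Lum in both batches, with 14.1 and 362 against 6.72 and 66.8 CPM. The levels of Lum and Dcn in these plates rest on the few wells named above. Within single CD45- wells of at least 50000 reads, Bgn was the highest member per kilobase in 50 of 79 and 47 of 82 wells, Dcn in 18 and 27, Lum in 3 and 6, Aspn in 6 and 0, and Ogn in 2 and 2, and Fmod led in none of these wells.

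**Figure D1:**
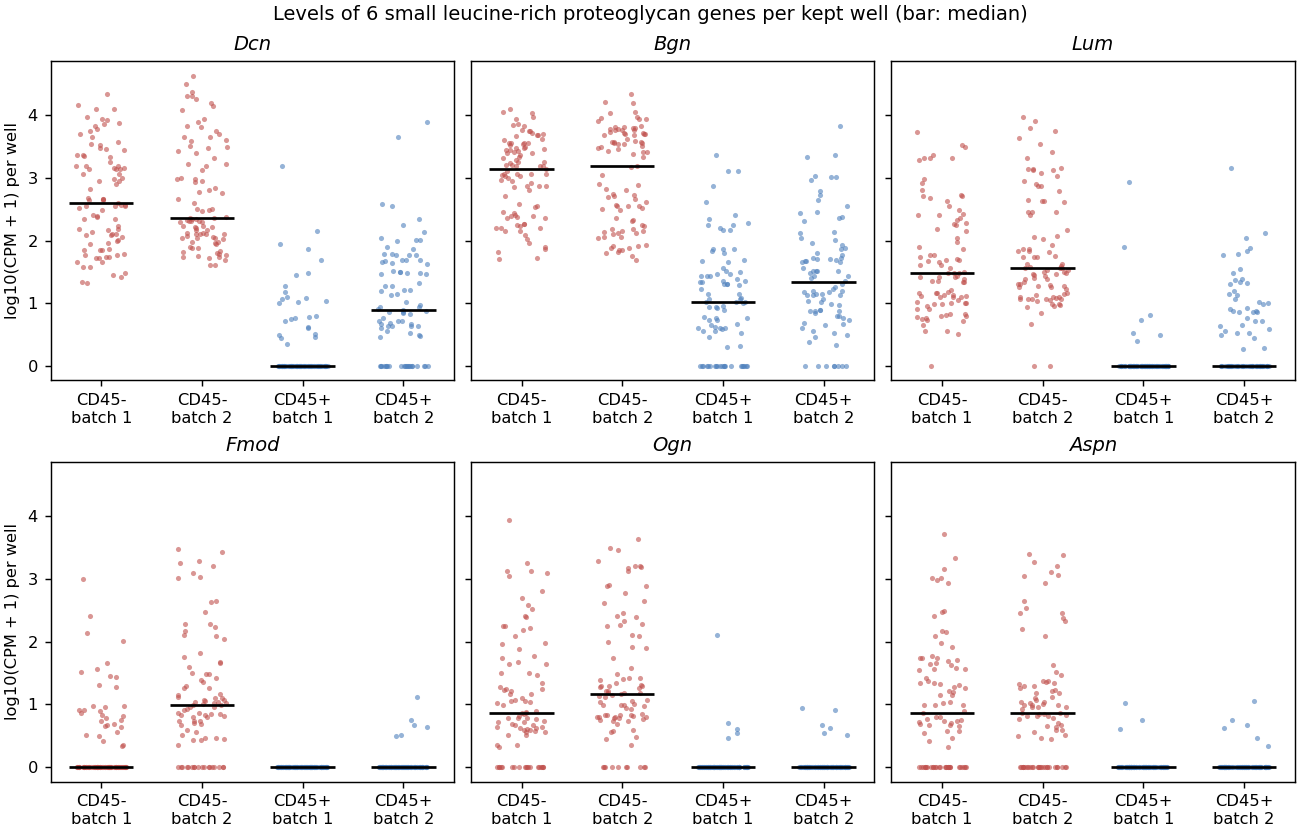
Levels of the 6 genes in each kept well, as log10(CPM + 1) on the vertical axis, for the CD45- plates (red) and the CD45+ plates (blue) of both batches; each point is 1 well and the bar is the median of the plate. Dcn and Bgn lie above 0 in every CD45- well, while Fmod, Ogn and Aspn lie at 0 in nearly all CD45+ wells.

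Dcn ranged over the kept CD45- wells from 19.99 to 22291 CPM with a median of 399 in batch 1, and from 40.1 to 43087 CPM with a median of 225 in batch 2. In CD45+ wells its median was 0 in batch 1 (highest 1557 CPM) and 6.92 CPM in batch 2 (highest 7867 CPM). For Bgn, the CD45- wells ran from 50.1 to 12783 CPM with a median of 1415 in batch 1, and from 48.1 to 22228 CPM with a median of 1533 in batch 2, against medians of 9.46 and 20.6 CPM in CD45+ wells with highest values of 2295 and 6682 CPM. The wells of the gates therefore overlapped for both genes: 7 of 92 and 25 of 90 CD45+ wells were at or above the lowest CD45- well of their batch for Dcn, and 18 of 92 and 30 of 90 for Bgn. Lum had medians of 28.9 and 35.5 CPM in CD45- wells, with highest values of 5451 and 9512 CPM. Medians of Ogn in CD45- wells were 6.16 and 13.6 CPM and the highest wells had 8832 and 4384 CPM, so its plate level came from wells far above the median. Fmod had medians of 0 and 8.61 CPM and highest values of 1013 and 3066 CPM in CD45- wells, and Aspn medians of 6.16 and 6.15 CPM and highest values of 5174 and 2526 CPM. In CD45+ wells the median was 0 for Lum, Fmod, Ogn and Aspn in both batches, and the highest values of Aspn were 9.54 and 10.3 CPM.

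Reads of Dcn and Bgn were found in all CD45- wells, including the shallowest. The CD45- wells with fewer than 50000 reads in all, 17 in batch 1 and 14 in batch 2, held a median of 20 and 32.5 Dcn reads each and at most 49 and 85, and a median of 28 and 42 Bgn reads and at most 113 and 112. Every one of these shallow wells had a Dcn and a Bgn read. At an equal depth of 50000 reads Dcn had a read in 97.5% and 98.8% of CD45- wells and Bgn in all of them, against 10.53% and 42.3% of CD45+ wells for Dcn and 42.1% and 56.4% for Bgn. Counting only wells with more reads of the gene than any shallow well of the same plate, Bgn was present in 49 of 79 and 41 of 82 CD45- wells, Dcn in 45 and 30, Aspn in 26 and 12, Lum in 17 and 21, Fmod in 17 and 18, and Ogn in 13 and 14. In the CD45+ plates the same rule left Bgn in 6 of 76 and 11 of 78 wells, Dcn in 5 and 1, Lum in 4 and 11, Aspn in 3 and 6, Fmod in 0 and 2, and Ogn in 0 and 6. Presence by this rule can still be a low level: the lowest such CD45- well had 2.12 CPM of Fmod in batch 1, and the lowest CD45+ wells had 1.16 to 6.14 CPM of Lum, Aspn, Ogn and Fmod. The wells above the shallow ones held 96.2% to 98.4% of each member's CD45- reads, so the plate levels were set by them. Whether the low reads in the other wells came from the sorted cell was not tested.

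Reads of the members were concentrated in few wells, to a different degree for each. The 5 leading CD45- wells of batch 1 and of batch 2 held 36.8% and 26.3% of the Bgn reads, 48.4% and 50.8% of the Dcn reads, 72.4% and 68.3% of the Lum reads, 72.4% and 73.3% of the Aspn reads, 80.4% and 56.3% of the Ogn reads, and 93.3% and 76.3% of the Fmod reads. It took 9 and 12 wells to reach 50% of the Bgn reads, but 6 and 5 for Dcn, 4 and 4 for Lum, 3 and 4 for Aspn, 2 and 5 for Ogn and 1 and 3 for Fmod. Bgn was thus the most evenly spread member and Fmod the least, in both batches. The single leading well held 7.82% to 27.1% of a member's reads in batch 2, and up to 44.2% (Ogn, replicate 15) and 69.9% (Fmod, replicate 48) in batch 1.

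**Figure D2:**
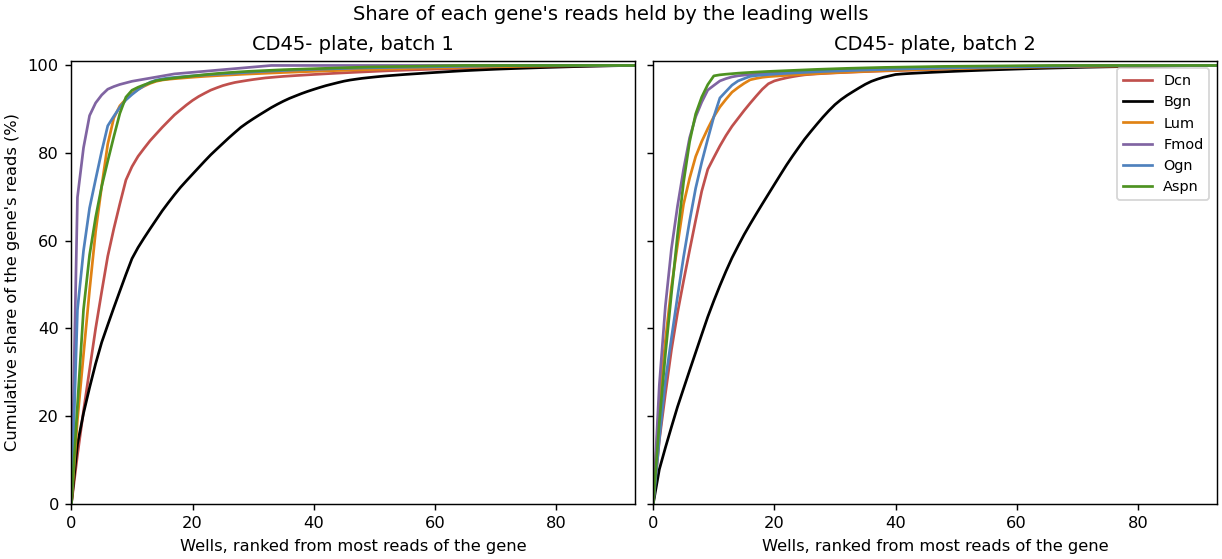
Cumulative share of each gene's reads (vertical axis, percent) against the number of kept CD45- wells, ranked from the well with most reads of the gene, in batch 1 and batch 2. The line of Bgn climbs most slowly, reaching 50% at 9 and 12 wells, and that of Fmod climbs fastest, reaching 50% at 1 and 3 wells.

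High levels of the other members occurred within the wells that were high in Bgn. At least 1000 CPM of Bgn was reached in 43 of 79 CD45- wells of batch 1 and 39 of 82 of batch 2, and at least 1000 CPM of Dcn in 26 and 20. All 26 and all 20 of these Dcn wells also had at least 1000 CPM of Bgn, where 14.2 and 9.51 would be found if the genes were independent of each other, and 17 and 19 wells had Bgn without Dcn. All 8 and 12 Lum wells had Bgn at that level too, as did the 1 and 8 Fmod wells, the 5 and 8 Ogn wells, and 4 of 5 and 7 of 7 Aspn wells. Dcn reached 1000 CPM in 7 of 8 and 11 of 12 Lum wells, 1 of 1 and 7 of 8 Fmod wells, 4 of 5 and 6 of 8 Ogn wells, and 4 of 5 and 6 of 7 Aspn wells. Bgn was the sole member at that level in 15 and 17 wells and Dcn in 0 and 0. Genes of a well share its depth and its cell, so these counts are given as a description.

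**Figure D3:**
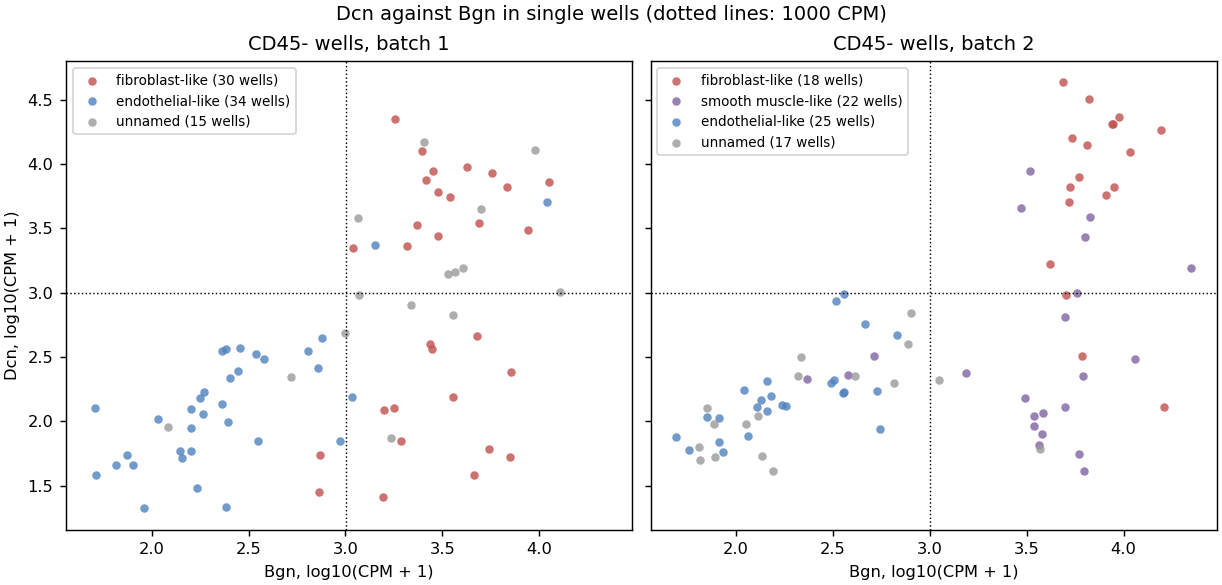
Dcn (vertical axis) against Bgn (horizontal axis) in single CD45- wells of at least 50000 reads, as log10(CPM + 1), for batch 1 and batch 2; colours are clusters made within each batch without any small leucine-rich proteoglycan gene, and dotted lines mark 1000 CPM. The upper left quadrant is empty in both batches, and the smooth muscle-like wells of batch 2 lie mostly at the lower right.

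Lum, Fmod, Ogn and Aspn shared wells in batch 2 more often than their separate frequencies would give. With presence again counted above the shallow wells, 19 of 82 CD45- wells of batch 2 held 4 or more members and 5 held all 6, against 13 of 79 and 3 in batch 1. In batch 2 Lum and Fmod were both present in 14 wells (4.61 if independent), Lum and Ogn in 12 (3.59), Lum and Aspn in 11 (3.07), Fmod and Ogn in 9 (3.07), Ogn and Aspn in 8 (2.05) and Fmod and Aspn in 7 (2.63). The same pairs in batch 1 shared 7 (3.66), 7 (2.80), 8 (5.59), 7 (2.80), 6 (4.28) and 4 (5.59) wells, in that order, so Fmod and Aspn shared fewer wells there than their separate frequencies give. Counted this way, Aspn differed between the batches: all 12 Aspn wells of batch 2 held both Dcn and Bgn, whereas in batch 1 it was with Dcn in 14 of 26 wells (14.8 if independent) and with Bgn in 16 of 26 (16.1). The rule set unlike levels in the 2 batches, with limits of 4 and 10 reads for Aspn, 1 and 8 for Fmod, 15 and 24 for Lum and 23 and 56 for Ogn. Many of the batch 1 Aspn wells were low, with a median of 51.6 CPM among the 26, against 1145 CPM among the 12 of batch 2. At 1000 CPM, Aspn was with Dcn in 4 of 5 wells of batch 1 (1.65 if independent) and 6 of 7 of batch 2 (1.71). With Bgn it was in 4 of 5 (2.72) and 7 of 7 (3.33), and with Fmod in 0 (0.063) and 2 (0.683). Across CD45- wells of at least 50000 reads, Pearson's r of log2(CPM + 1) was 0.59 (79 wells) and 0.73 (82 wells) for Dcn with Lum, 0.64 and 0.64 for Dcn with Bgn, and 0.43 and 0.63 for Fmod with Ogn. For Aspn with Dcn r was -0.01 and 0.37, and with Ogn 0.10 and 0.52. The wells of a plate share 1 sort and library preparation and differ in depth, with which Dcn had r of -0.05 and 0.33, so r is given as a description.

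Single wells led for several members at once. In batch 2, CD45- replicate 79 was among the 10 highest wells, by reads, for all 6 members, replicates 31, 42 and 85 for 5 each, and replicates 34, 66 and 96 for 4 each. Batch 1 had replicate 96 among the 10 highest for 5 members and replicates 9, 33, 37 and 92 for 4 each. A ranking by reads favours deep wells. Replicate 79 had 708491 reads in all, beside a median of 288818 on its plate, and replicate 96 had 471805, beside 255990. Of the wells named, only replicate 33 of batch 1, with 175853 reads, was under the median of its plate. The part of depth was not tested. Dcn and Lum shared 8 of their 10 highest wells in batch 1 and 5 in batch 2, and Ogn and Aspn shared 2 in batch 1 and 6 in batch 2. Fmod and Ogn, which lie on different chromosomes, shared 5 and 7. Of the 5 wells in batch 1, replicates 31 and 78 were low in Fmod, with 25.9 and 8.40 CPM. The part of genomic neighbourhood in this sharing was not tested.

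In batch 2 most wells rich in these genes were fibroblast-like, with Bgn also high in smooth muscle-like wells. Of the wells with at least 1000 CPM of Dcn, 15 of 20 in batch 2 were fibroblast-like and 5 smooth muscle-like, whereas of the 26 in batch 1, 16 were fibroblast-like, 8 were in an unnamed cluster and 2 were endothelial-like. CD45- wells of at least 50000 reads were clustered within each batch, leaving out the 18 genes of the family that were measured, and clusters were named from marker genes. Clusters rest on the same cells, so what follows is a description. In batch 2, the 18 fibroblast-like wells (detected markers Col1a1, Col1a2, Col3a1, Mfap5 and Postn) held 30% of the reads of the clustered wells but 84% of the Dcn, 92.2% of the Lum, 96.3% of the Fmod, 85.1% of the Ogn and 80.5% of the Aspn reads, and 56.2% of the Bgn reads. The 22 smooth muscle-like wells (Acta2, Tagln, Actg2 and Des, and also Serpine2, a mesangial marker) held 30.7% of the reads with 40.7% of the Bgn but 14.4% of the Dcn, 6.11% of the Lum and 1.88% of the Fmod reads. They were not poor in Col1a1, with a median of 5097.5 CPM, beside 11334 CPM in fibroblast-like and 208 CPM in endothelial-like wells. Their median of Pdgfrb was 271 CPM, beside 10.9 CPM in fibroblast-like and 7.38 CPM in endothelial-like wells. The median of Bgn was 6536 CPM in fibroblast-like and 3812 CPM in smooth muscle-like wells, and that of Dcn was 10163 and 226 CPM. Lum had medians of 1376 and 32.1 CPM in the same order of clusters, Fmod 300.2 and 7.30 CPM, Ogn 774 and 11.1 CPM, and Aspn 7.09 and 8.70 CPM. Aspn was thus high in few fibroblast-like wells, 6 of 18 at 1000 CPM, and its median there was not above that of smooth muscle-like wells. The fibroblast-like wells of batch 2 were also the deepest, with a median of 583402 reads, against 373502 in smooth muscle-like and 186978 in endothelial-like wells, and the part of depth was not tested. The batch 2 wells of an unnamed cluster with Akr1b7 and Ren1 among its leading genes (17 wells) and the endothelial-like wells (25) held 20.3% and 19% of the reads but at most 2.29% and 1.61% of the reads of any member.

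In batch 1 the clusters separated the members less. The 30 fibroblast-like wells held 47% of the reads, with 73% of the Dcn, 71.5% of the Bgn, 69.8% of the Lum, 94% of the Fmod, 81.2% of the Ogn and 64.4% of the Aspn reads, and medians of 2262 CPM of Dcn and 2901 CPM of Bgn. An unnamed cluster of 15 wells, led by Bmp4 among others, had medians of 1015 CPM of Dcn and 2536 CPM of Bgn. The 34 endothelial-like wells held 35.2% of the reads and 3.56% of the Dcn, 6.71% of the Bgn, 10.9% of the Ogn and 16.5% of the Aspn reads. Without replicate 58, which alone had 1273 Dcn, 2783 Bgn and 458 Ogn reads, these shares were 1.82% of the Dcn, 3.18% of the Bgn and 1.17% of the Ogn reads, and that of Aspn did not move. This cluster's detected markers were Pecam1, Emcn, Flt1 and Egfl7, but also the macrophage marker C1qb and the haemoglobin genes Hbb-bs, Hbb-bt, Hba-a1 and Hba-a2. Its median of Flt1 was 7.10 CPM, beside 37.4 CPM in the endothelial-like wells of batch 2. Its reads of Bgn included 3 wells at or above 1000 CPM. Both CD45- plates were single sorts, so a difference between the batches cannot be told apart from a difference between the mice or plates. When all 4 plates were clustered together, mesenchymal wells split by batch. The fibroblast-like cluster held 45 of the CD45- wells of batch 1 but 8 of batch 2, and an unnamed cluster held 3 and 51. Leading genes of the unnamed cluster included Ren1, Fmod and Ogn. Its detected markers were Col1a1, Col1a2, Col3a1, Mfap5, Postn, Acta2, Tagln, Des, Serpine2 and Ren1. In batch 2 it held 93.4% of the Dcn and 98.3% of the Fmod reads of the CD45- plate, with 64.5% of all reads. Ren1, the renin gene, had 412 CPM in the CD45- plate of batch 1 and 15007 CPM in that of batch 2. Single wells, replicates 47 and 13, held most of the Ren1 reads, and without them these levels were 46.3 and 2246 CPM. In that clustering the endothelial-like wells held 25.5% and 20.03% of the CD45- reads and 1.94% and 1.01% of the summed member reads. Replicate 58 of batch 1 was not among them but in the fibroblast-like cluster. Of the 28 endothelial-like CD45- wells of batch 1, 0 reached 1000 CPM of Dcn, and the highest had 467 CPM.

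**Figure D4:**
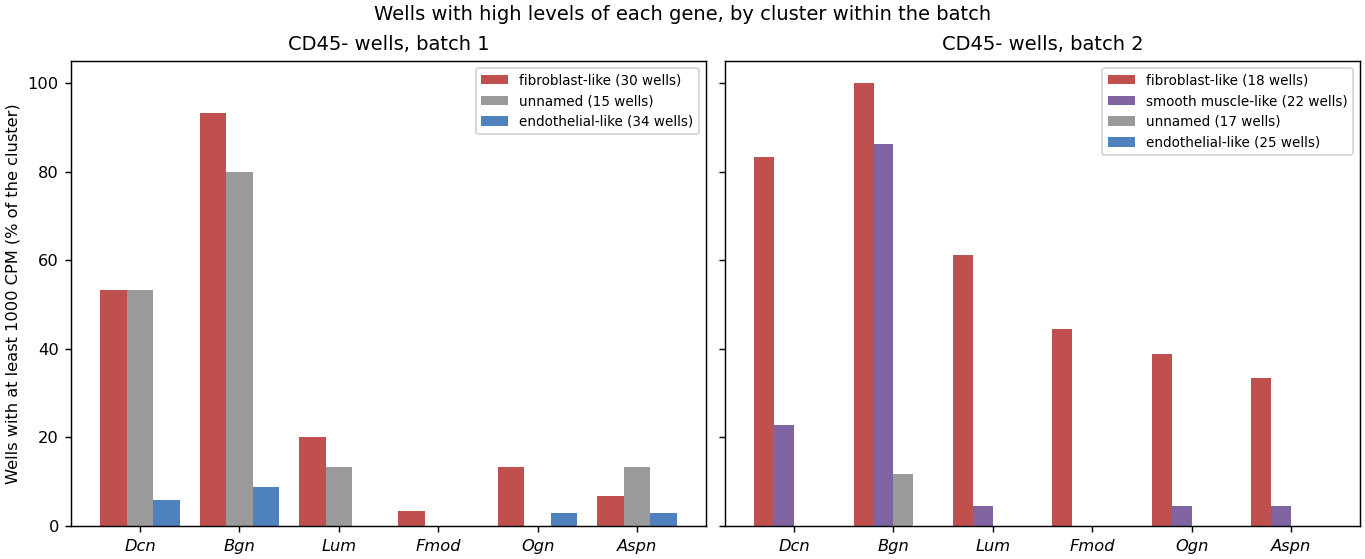
Share of CD45- wells with at least 1000 CPM of each gene (vertical axis, percent of the cluster's wells), by cluster within batch 1 and batch 2. In batch 2 all 18 fibroblast-like and 19 of 22 smooth muscle-like wells reach that level of Bgn, while Lum, Fmod, Ogn and Aspn reach it in at most 1 smooth muscle-like well each.

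For each member, the 5 genes with the most similar levels were taken from 6915 genes compared, by the lower of both batches' r over CD45- wells of at least 50000 reads. For Bgn they were the fibrillar collagen genes Col1a1 (Pearson's r 0.85 in 79 wells of batch 1 and 0.89 in 82 wells of batch 2), Col3a1 (0.85 and 0.86) and Col1a2 (0.80 and 0.86), then Mgp, an inhibitor of calcification, and Col5a2. For Dcn the first was Mfap5, a microfibril protein gene of adventitial fibroblasts (0.76 and 0.77), followed by Bgn, Col3a1, Lum and Col1a1. Lum was also nearest to Mfap5 (0.67 and 0.75), then to Dcn, Mfap4, Fbln1 and Col3a1, of which Mfap4 and Fbln1 encode elastic fibre proteins. Fmod was nearest to Dcn (0.50 and 0.57), Mfap5, Trabd2b, Mfap4 and Ogn, and Ogn to Dcn (0.55 and 0.64), Col8a1, Mfap5, Col14a1 and Fbln1. Mfap5 was thus among the first 5 for Dcn, Lum, Fmod and Ogn and not for Bgn or Aspn. A place among the first 5 depends on the other genes, however. With Mfap5, Bgn had r of 0.512 and 0.577, beside 0.473 and 0.606 for Fmod and 0.485 and 0.668 for Ogn. For Aspn with Mfap5, r was 0.077 and 0.453. Aspn had no close match: its first was C1qtnf3 (0.37 and 0.40), then Cilp, Mia3, Cdc16 and Col8a1. Acta2, the smooth muscle actin of myofibroblasts, had r of 0.11 and 0.43 with Bgn, -0.10 and 0.30 with Dcn and -0.23 and 0.16 with Lum. The endothelial gene Flt1 had r of -0.51 and -0.47 with Bgn.

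Member reads in the CD45+ plates came from a few wells and, for the rarer members, from particular positions. Wells of at least 50000 reads with at least 100 CPM of any member numbered 6 of 76 in batch 1 and 13 of 78 in batch 2, and in 5 and 9 of them Bgn was the sole member at that level. Replicate 18 of batch 2, the deepest well of the series, had 9803 reads of Dcn, 1788 of Lum, 8326 of Bgn and 15 of Fmod, with 29390 of Col1a1, 10373 of Cd74, the invariant chain of antigen-presenting cells, and 1 of Ptprc. It therefore held Dcn, Lum and Bgn reads at fibroblast-like levels together with many of Cd74, and it was placed in the macrophage-like cluster. Replicate 76 of batch 1 had 302 reads of Dcn, 169 of Lum, 81 of Bgn, 702 of Col1a1, 582 of Acta2, 358 of Cd74 and 2 of Ptprc. No caller of doublets was run and the number of cells in these wells was not tested.

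Bgn was high without Dcn in several CD45+ wells. Replicate 42 of batch 2 had 723 Bgn reads (2352 CPM) with 881 of Ptprc, 13053 of Cd74, 17 of Col1a1 and 2 of Dcn. Replicate 36 of the same plate had 689 Bgn reads (1034 CPM) with 259 of Ptprc, 5 of Col1a1 and 2 of Dcn, and both wells fell in the macrophage-like cluster. Replicate 30 of batch 1 had 498 Bgn reads (2295 CPM) with 4 of Ptprc, 2010 of Cd74 and 1 of Col1a1. In batch 1, replicates 82 and 91 had 616 and 1094 Bgn reads with 804 and 543 of Col1a1, and fell in the fibroblast-like cluster. The CD45- wells at the same positions held 5074 Bgn reads for replicate 42, 65 for replicate 36, 64 for replicate 30, 1569 for replicate 82 and 70 for replicate 91. In replicates 36, 30 and 91 the CD45+ well thus held more Bgn reads than the CD45- well at its position.

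The CD45+ wells with a read of Ogn, Aspn or Fmod were mostly at plate positions where the CD45- plate of the same batch was highest. The 20 highest CD45- positions, 20.8% of a plate, held 3 of the 3 Aspn positions with a CD45+ read in batch 1 and 5 of 6 in batch 2, 3 of 5 and 5 of 6 for Ogn, and 5 of 8 for Fmod in batch 2. By reads, however, these positions held 6 of the 23 Fmod reads, since replicate 18 alone had 15, and Fmod had none in CD45+ of batch 1. Against the CD45- plate of the other batch the counts were 0 of 3 and 3 of 6 for Aspn, 2 of 5 and 1 of 6 for Ogn and 2 of 8 for Fmod. Over the 96 positions, Spearman's rho of Dcn reads between CD45+ and CD45- wells was 0.48 and 0.39 within batches 1 and 2, and 0.04 and 0.16 across batches. For Bgn it was 0.32 and 0.38 within and 0.08 and 0.28 across batches, and for Lum 0.02 and 0.27 within and -0.02 and 0.02 across. At position 15 of batch 1 the CD45+ well had 2 reads of Ogn and the CD45- well, the highest of its plate, had 2075. At positions 66 and 79 of batch 2 the CD45+ wells had 28 and 19 Dcn reads, and the CD45- wells, the highest of that plate, had 19628 and 14414. Where a CD45- well of batch 2 had at least 300 reads of Dcn, its CD45+ partner had a median of 0.102 reads per 100. The part of the position in the CD45+ reads was not tested.

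**Figure D5:**
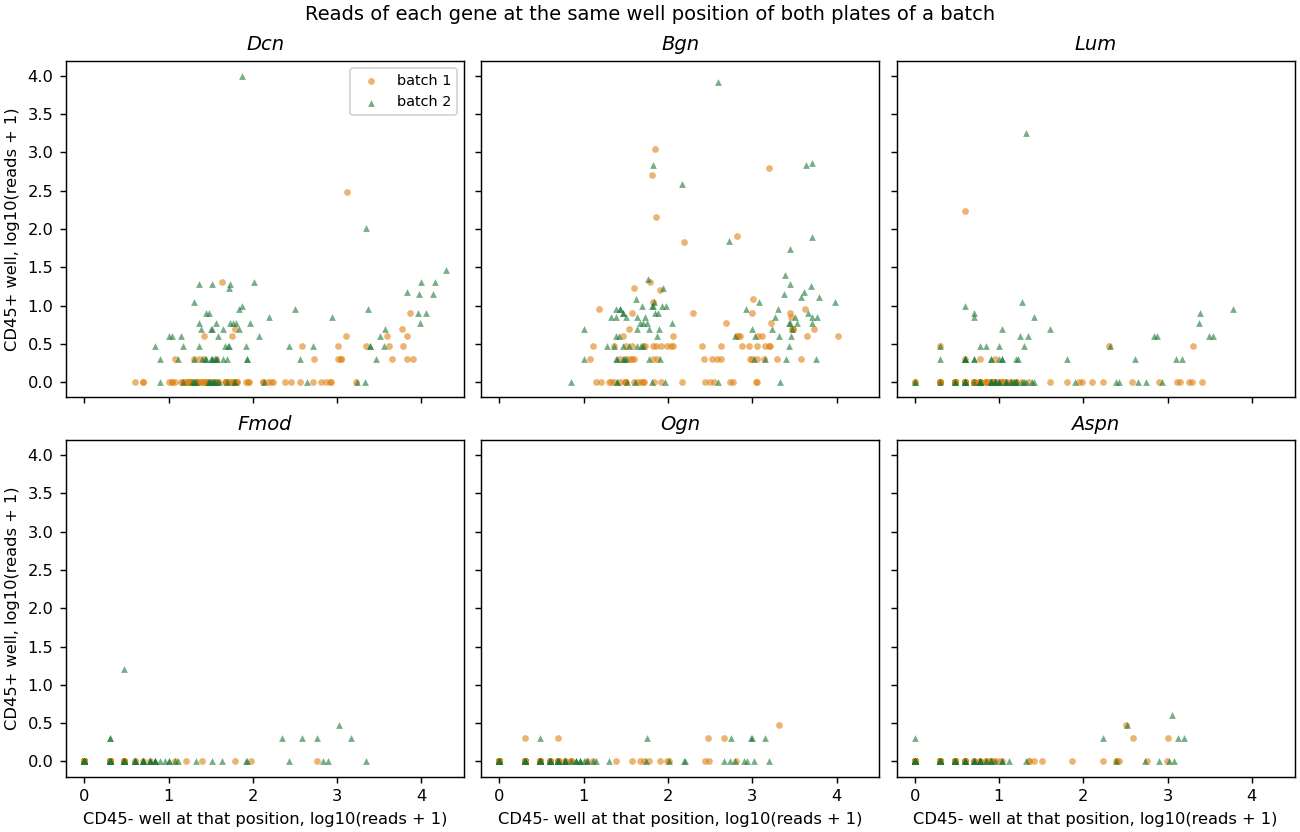
Reads of each gene in the CD45+ well (vertical axis) against the CD45- well at the same plate position of the batch (horizontal axis), both as log10(reads + 1), for batch 1 (circles) and batch 2 (triangles), with 96 positions a batch. Wells with a CD45+ read of Ogn or Aspn lie mostly at the right, where the CD45- well is high, while the 15 Fmod reads of replicate 18 and single wells with many Dcn, Lum or Bgn reads stand apart from this.

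Of the 12 other genes of the family, 4 were higher in the CD45- plates and 0 in the CD45+ plates by the 4-fold rule. Of all genes, 12.9% and 4.33% were called in these directions. Prelp, the neighbour of Fmod, which links basement membranes to connective tissue, was the most abundant with 236 and 443 CPM in CD45- and 0.604 and 32.2 CPM in CD45+, where replicate 18 of batch 2 held 96.4% of its reads. Omd, between Aspn and Ogn, had 17.6 and 31.9 CPM in CD45-, with 0 and 0.0351 CPM in CD45+. Podn had 17.8 and 31.1 CPM in CD45- and 0.0755 and 0.141 CPM in CD45+. Ecm2, at 24.4 and 33.4 CPM in CD45- and 0.0755 and 5.45 CPM in CD45+, lost the call without CD45- replicate 23 or 47 of batch 2 (log2 ratio 1.89 and 1.86 in that batch) and under other scalings. The other 8 were not called, 6 of the 12 were under 1 CPM on average, and 3 and 4 had no read in CD45-.

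Among 17 other proteoglycan core protein genes, 8 were higher in the CD45- plates and 0 in the CD45+ plates, beside 12.9% and 4.33% of all genes. Vcan, the large hyaluronan-binding proteoglycan versican, had 119 and 120 CPM in CD45-, against 0.189 and 0.141 CPM in CD45+. Sdc2, a cell surface syndecan, had 204 and 373 CPM in CD45- and 30.6 and 19.5 CPM in CD45+, or 11.7 and 0.705 CPM without CD45+ replicates 91 and 67, which held 63.1% and 96.4% of its reads there. Gpc6, Agrn and Cspg4, the pericyte proteoglycan NG2, were called as well, with log2 ratios of 5.67 and 6.49, 4.97 and 5.63, and 5.31 and 4.21. Sdc4, another syndecan, was not called, with 40.04 and 117 CPM in CD45- and 222 and 172 CPM in CD45+. Srgn, the serglycin of leukocyte granules, had 440 and 385 CPM in CD45- and 1431 and 1449 CPM in CD45+, with log2 ratios of -1.70 and -1.91 that missed the 4-fold level.

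Next were the enzymes that build the sulfated chains. Of 23 genes of chondroitin and dermatan sulfate synthesis 4 were higher in CD45- and 0 in CD45+, and of 7 genes of keratan sulfate synthesis 2 and 0, beside the 12.9% of all genes called higher in CD45-. The most abundant of the chondroitin list, Chst12 (66.96 and 83.98 CPM in CD45-, 43.3 and 125 CPM in CD45+), Chpf and B3gat3 (75.6 and 19.9 CPM in CD45-, 11.6 and 51.05 CPM in CD45+), were not called. Csgalnact1, which starts chondroitin chains, had 81.6 and 63.9 CPM in CD45- and 0.0378 and 11.7 CPM in CD45+, where replicate 96 of batch 2 held 97% of its reads (0.357 CPM without it), and Chst15 had 31.3 and 50.9 CPM in CD45- and 0.113 and 3.72 CPM in CD45+. Chst11 was called as well, with log2 ratios of 2.36 and 4.44. Chst1, a keratan sulfate sulfotransferase, had 32.2 and 43.7 CPM in CD45- and 0.0755 and 0.141 CPM in CD45+. Chst3 and B3gnt7 rested on single CD45- wells: the log2 ratio of Chst3 was 1.35 in batch 1 without replicate 39 and 0.37 in batch 2 without replicate 83, and that of B3gnt7 was 0.27 in batch 1 without replicate 40 and -0.05 in batch 2 without replicate 8. B4galt1 and B4galt4, which extend keratan sulfate, were not called, with log2 ratios of 3.36 and 1.79, and 1.80 and 3.94. Chpf, a chondroitin polymerase subunit with 66.8 and 89.8 CPM in CD45- and 0.0755 and 32.3 CPM in CD45+, was called without CD45+ replicate 18 of batch 2, which held 98.2% of its reads there.

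Of 16 collagen fibril genes and their partners, 12 were higher in CD45- and 0 in CD45+ (8 under TMM or DESeq2 factors), at median log2 ratios of 3.89 and 3.06. Of all genes, 12.9% were higher in CD45- and 4.33% in CD45+. Col1a1 had 4891 and 6028 CPM in CD45- and 234 and 1103 CPM in CD45+, with 93.6% of its batch 2 reads in CD45+ replicate 18, where it had 23586 CPM. Col6a2, a chain of the microfibrils that bind biglycan and decorin, had 204 and 340 CPM in CD45- and 0.302 and 0.246 CPM in CD45+, and Fbn1, fibrillin, had 304 and 183 CPM in CD45- and 0.869 and 4.39 CPM in CD45+. Col3a1 and Col1a2 had log2 ratios of 3.82 and 2.45, and 4.56 and 3.09, Col12a1 3.68 and 4.35, and Loxl1, a collagen cross-linking oxidase, 3.95 and 3.31. Without replicate 18, the CD45+ plate of batch 2 had 73.3 CPM of Col1a1, 28.8 of Col3a1, 96.4 of Col1a2, 0.772 of Col12a1 and 1.69 of Loxl1. Of 12 genes listed as processing and cleaving proteases, 5 were higher in CD45- and 0 in CD45+, beside 12.9% of all genes higher in CD45-. The list was led by Pcolce, an enhancer of procollagen cleavage rather than a protease, with 1455 and 2287 CPM in CD45- and 51.2 and 171 CPM in CD45+. Mmp14 and Mmp2 followed with log2 ratios of 2.37 and 2.58, and 2.82 and 2.47, and Htra1 had 5.62 and 4.70. Adamts4, which cleaves proteoglycans, had 95.3 and 55.5 CPM in CD45-, against 0 and 0.597 CPM in CD45+. The list of receptors and bound growth factors went both ways, with 5 of 17 higher in CD45- and 2 in CD45+, beside 12.9% and 4.33% of all genes. The biglycan receptor genes Tlr2, at 0.0341 and 0.0315 CPM in CD45- and 80.7 and 67.2 CPM in CD45+, and Cd14, at 9.71 and 33.7 CPM in CD45- and 1267 and 1716 CPM in CD45+, were those higher in CD45+. Tlr4, also a biglycan receptor gene, was not called, with 0 and 9.98 CPM in CD45- and 22.6 and 0.0703 CPM in CD45+, where 1 well, replicate 95, held 99.2% of the batch 1 reads. Higher in CD45- were Tgfb2 (25.4 and 74.5 CPM in CD45-, 0.340 and 5.69 CPM in CD45+), Bmp4 (log2 ratios 4.54 and 4.84), Egfr (4.75 and 4.62), Wisp1 (4.62 and 3.66) and Lrp1 (4.12 and 2.09), an endocytic receptor of decorin, whose call was lost without CD45- replicate 23 or 49 of batch 2. Under other scalings Csgalnact1, Chst11, Col1a1, Col3a1, Col6a3, Fn1, Lrp1, Mmp2 and Mmp14 also lost the 4-fold call, Mmp14 under DESeq2 in both batches and the others in 1 batch, though each kept its direction. Leaving out a single well added calls for Hspg2, Col5a1, Chst14, B4galt7, B4galt1, Tgfb3, Mmp3, Bmp1 and Adamts5 in CD45- and for P2rx4 in CD45+.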

How the data were processed

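Counts of reads per gene and well were deposited as 1 table per batch and are whole numbers that were not normalized. RNA was amplified with the Clontech SMARTer kit, per the labels' protocols, which name no molecular identifiers, and the submitters' processing notes list STAR (given as 3.0.4), Subread and featureCounts 1.4.5. Genome build, annotation and strand setting are not given in the sources used here. Lines that repeat a gene identifier (598 and 595, with 2.39% and 2.42% of the reads) were dropped. All 384 columns were mapped to a well.

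The 6 members, the lists of related genes and the markers were chosen with earlier results of these data known. Wells with fewer than 10000 reads or 500 genes (16 of 384) were left out. Each plate was summed as 1 sample, and CPM and log2(CPM + 1) were computed per plate and per well. A call needed a 4-fold difference with the same sign in each batch, and the background was all genes with a mean of 1 CPM or more. With 1 plate per gate and batch no test was made; intervals are exact (Poisson or Clopper-Pearson, 95%) and cover counting error only, since reads are not independent molecules. For detection at equal depth, wells of at least 50000 reads were thinned to 50000 with a fixed seed. Exon lengths come from GENCODE M21 and serve the levels per kilobase only. Clustering used scanpy 1.11.5 and leidenalg 0.10.2 (2000 variable genes, 20 components, 15 neighbours, resolution 1), without 18 genes of the family. A cluster was named from at least 3 detected markers. No doublet caller was run.

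Of each list, the 3 genes with the highest mean CPM and up to 4 further called genes by the smaller of both log2 ratios are named, and for each member the 5 genes of most similar pattern. Genes whose call depended on a well or scaling are named in addition, after their values were seen. Alternatives were other pseudocounts, folds, filters, depths and cluster resolutions, each well left out, TMM factors from edgeR 4.0.16 and size factors from DESeq2 1.42.0. R 4.3.3, Python 3.11.15, NumPy 2.4.6, pandas 2.3.3, SciPy 1.17.1 and Matplotlib 3.10.9 were used, and the plate comparison was tested on simulated counts.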

Additional observations from a re-analysis of the deposited data

Results flagged for a closer look

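Member reads were also present in the 3 CD45- wells of each plate that were left out for too few reads or genes and enter no comparison. In batch 1 these wells held 56 reads of Dcn and 53 of Bgn among 21207 reads, which are 2641 CPM and 2499 CPM. In batch 2 they held 84 reads of Dcn and 77 of Bgn among 21993 reads, which are 3819 CPM and 3501 CPM. The plate levels of kept CD45- wells were 2461 and 4278 CPM of Dcn and 2620 and 3903 CPM of Bgn. The CD45+ wells left out held 0 and 11 Dcn reads and 2 and 14 Bgn reads among 33668 and 46812 reads. For Dcn and Bgn the levels summed over these shallow CD45- wells were close to those of their plate. Their median wells had 751.5 and 3895 CPM of Dcn and 2254 and 3326 CPM of Bgn. The summed Dcn level of batch 1 was thus well above its median well. Lum had 189 and 318 CPM in them, against plate levels of 457 and 793 CPM. Aspn had no read in them, for which the exact Poisson interval reached up to 174 and 168 CPM. Its plate level was 156 CPM in batch 1, within that interval, and 268 CPM in batch 2, above it. Ogn had 0 and 4 reads and Fmod 1 and 6. The source of these reads was not tested.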

How the results depend on the processing

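All 6 members kept the call under every alternative run except a pseudocount of 10, where Fmod had a log2 ratio of 1.94 in batch 1 and 5 members were called. Over the 11 settings that could lower or raise a member's ratio, 131 of 132 ratios kept direction and side of the 4-fold level. TMM and DESeq2 factors shifted the median of all genes by -0.31 and -0.31 in batch 1 and by -0.48 and -0.50 in batch 2, and the lowest member ratio was then 2.71 and 2.66. The share of all genes called higher in CD45- was 2.83% with a pseudocount of 10, 22.1% at 2-fold, 6.90% at 8-fold and 6.51% without a filter. The count of wells with any member depended on the rule. For CD45- of batch 1 it was 100% at 1 read, 92.4% at 5 reads and 84.8% above the shallow wells, and for CD45- of batch 2 the last 2 were 89.02% and 57.3%. For CD45+ of batch 1, 46.1% had a member read at equal depth, against 30.5% at 20000 reads, 70.3% at 100000, 81.5% unthinned, 7.90% at 5 reads and 15.8% above the shallow wells. For CD45+ of batch 2, 71.8% had a member read, against 55.3% at 20000 reads, 95.6% unthinned, 17.95% at 5 reads and 33.3% above the shallow wells. Wells with 4 or more members were 44.3% of CD45- wells in batch 1, against 96.8% unthinned, 11.4% at 5 reads, 16.5% above the shallow wells and 3.80% at 1000 CPM, and 62.2% in batch 2, against 95.7%, 19.5%, 23.2% and 14.6%. The share of member reads in endothelial-like wells was 1.94% in batch 1, but 0.553% at resolution 2 and 5.39% when clustered within the batch, and 1.01% in batch 2, but 0.857% within the batch. In that order, the wells so named numbered 28, 8 and 34 in batch 1 and 26 and 25 in batch 2. CD45- wells of batch 1 named red blood cell-like numbered 34 at resolution 2, against 13 at resolution 1. By TMM and DESeq2, 2 genes of chondroitin and dermatan sulfate synthesis, 3 genes of the protease list and 8 collagen fibril genes and partners (12 in the main comparison) were called. Leaving out single wells gave 1 to 3 called genes of keratan sulfate synthesis. Of the 5 most similar genes of each member, 5 and 5 of Dcn, 4 and 4 of Lum, 5 and 4 of Bgn, 4 and 3 of Fmod, 3 and 2 of Ogn and 1 and 2 of Aspn were shared with a ranking by Spearman's rho and with thinned wells. The cause of these shifts was not tested beyond what each rule sets. No paired analysis was possible because the results come from no test and replicate numbers only name plate positions; the ratios were formed within each batch.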
